A study of Homo sapiens with 9 samples.

Results

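The ribosome biogenesis factors are proteins that transcribe, modify, cut and fold ribosomal RNA and assemble it with ribosomal proteins, but that are not part of the finished ribosome. A list of 43 such genes was read by symbol from a table of read counts with 60591 gene symbols, and all 43 were found there. The counts came from uCaco-2 cells, which are undifferentiated, proliferating cells of the human colon adenocarcinoma line Caco-2. The cells were kept for 24 h in medium with 300 μM cobalt(II) chloride (CoCl2), in medium with 5 μM of an oxyquinoline derivative (OD), or in fresh medium as control, and 0.5% DMSO was present in all 3 conditions. Both agents are used as chemical activators of hypoxia-inducible factor (HIF), and the study asked how an intestinal cell model responds to them. There were 3 biological replicates per condition, all of a single tumour-derived line, so the spread between libraries is that between cultures and not between people.

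Ribosome production starts in the nucleolus, where RNA polymerase I transcribes a long precursor that holds the 18S, 5.8S and 28S ribosomal RNAs. Small nucleolar ribonucleoproteins (snoRNPs) of the box C/D kind add methyl groups to the precursor, those of the box H/ACA kind turn uridines into pseudouridines, and large protein assemblies then cut it and build the small and the large subunit along separate paths. Growing cells such as those of the intestinal crypt make many ribosomes, and many genes of this pathway are known targets of the transcription factor MYC. The members were placed in 6 role groups, namely RNA polymerase I transcription (8 genes), box C/D snoRNP (3), box H/ACA snoRNP (4), small subunit assembly (14), large subunit assembly (8) and other nucleolar proteins (6).

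The libraries were made from poly(A) RNA, so the values are levels of the messenger RNAs of these proteins, and ribosomal RNA itself was not measured. Library totals were 15998136 to 24209427 counts. The CoCl2 libraries had 21.7 to 22.3% of their counts on the 50 genes at the top, and the others 15.7 to 16.2%. The TMM factors of edgeR allow for such differences in composition, and lay at 0.770 to 0.795 for CoCl2, 1.11 to 1.12 for control and 1.14 to 1.15 for OD. Levels are given as CPM, the counts brought to a shared library size by these factors. Of 12 colon epithelial markers 10 passed the count filter. CDX1 had 0 counts in every library, GPA33 had 0 to 15 and LGALS4 had 5 to 33. VIL1 fell with CoCl2 (-2.45), and KRT20 had 76 to 92 counts in control and 17 to 37 with CoCl2. The summed level of the 12 markers was 10610 to 14506 CPM, with KRT8 and KRT18 holding the most counts. It was 17.5 to 27.5 CPM for 10 markers of immune, endothelial and stromal cells. In such bulk RNA, fewer cells of a type and less RNA per cell cannot be told apart. A gene was called changed at an adjusted p under 0.05 with a log2 fold change above 1 in size, and the counts at an adjusted p under 0.05 alone are given beside the calls.

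With OD the ribosome biogenesis genes fell almost as a whole. At an adjusted p under 0.05 (edgeR quasi-likelihood test, Benjamini-Hochberg adjustment over 15944 tested genes) 40 of the 43 members were lower and 0 were higher, where 33.3% of all tested genes were lower and 32.3% higher. Levels of 42 members were lower in all 3 OD libraries than in any control library, and 34.3% of all tested genes showed this. The 9 members called lower changed by -1.42 for RRP9, -1.42 for UTP20, -1.32 for LTV1, -1.20 for NOP56, -1.13 for MRTO4, -1.13 for NOP16, -1.08 for BOP1, -1.01 for DDX10 and -1.001 for POLR1B on the log2 scale. The calls of DDX10 and POLR1B sit near the threshold and were lost in 8 and 11 of the other settings tried, so that other scalings, filters, fits and left-out replicates gave 7 to 10 members called lower. None was called higher, and the background was 4.16% of tested genes called lower and 9.09% called higher. The median change of the members was -0.84 on the log2 scale, against -0.010 for all tested genes. The 3 members that did not pass the test were RRN3 (0.094, adjusted p = 0.105), FBL (-0.083, adjusted p = 0.0703) and NOB1 (-0.072, adjusted p = 0.169) in the same edgeR test.

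With CoCl2 the same 43 genes spread to both sides. At an adjusted p under 0.05 (edgeR) 19 members were higher and 18 lower, where 40.4% of all tested genes were higher and 42.8% lower, so that the shares of the members were close to those of the transcriptome. Called higher were RRP12 (1.31) and NOP2 (1.30), and called lower were BOP1 (-1.91), WDR12 (-1.71), MYBBP1A (-1.64), UBTF (-1.57), RRP1B (-1.51) and POLR1A (-1.09), on the log2 scale. These 2 and 6 members stand beside 19.9% of tested genes called higher and 23.4% called lower. The median change of the members was 0.025, against -0.049 for all tested genes. GAR1, DDX21, DDX10, NOP56, GNL3 and NOP16 did not pass the test, with changes of -0.16 to 0.071. Signs with CoCl2 rest on the scaling. With library size alone the median of all tested genes moved from -0.049 to -0.55 and that of the members to -0.48. Then 0 members were called higher and 11 lower, where 1833 of 15944 tested genes were called higher and 5839 lower. Only RRP12, NOP2, RRN3, TAF1D, POLR1C, NOP58 and NOB1 stayed above 0. With OD each member had the same sign under the 4 scalings tried.

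**Figure D1:**
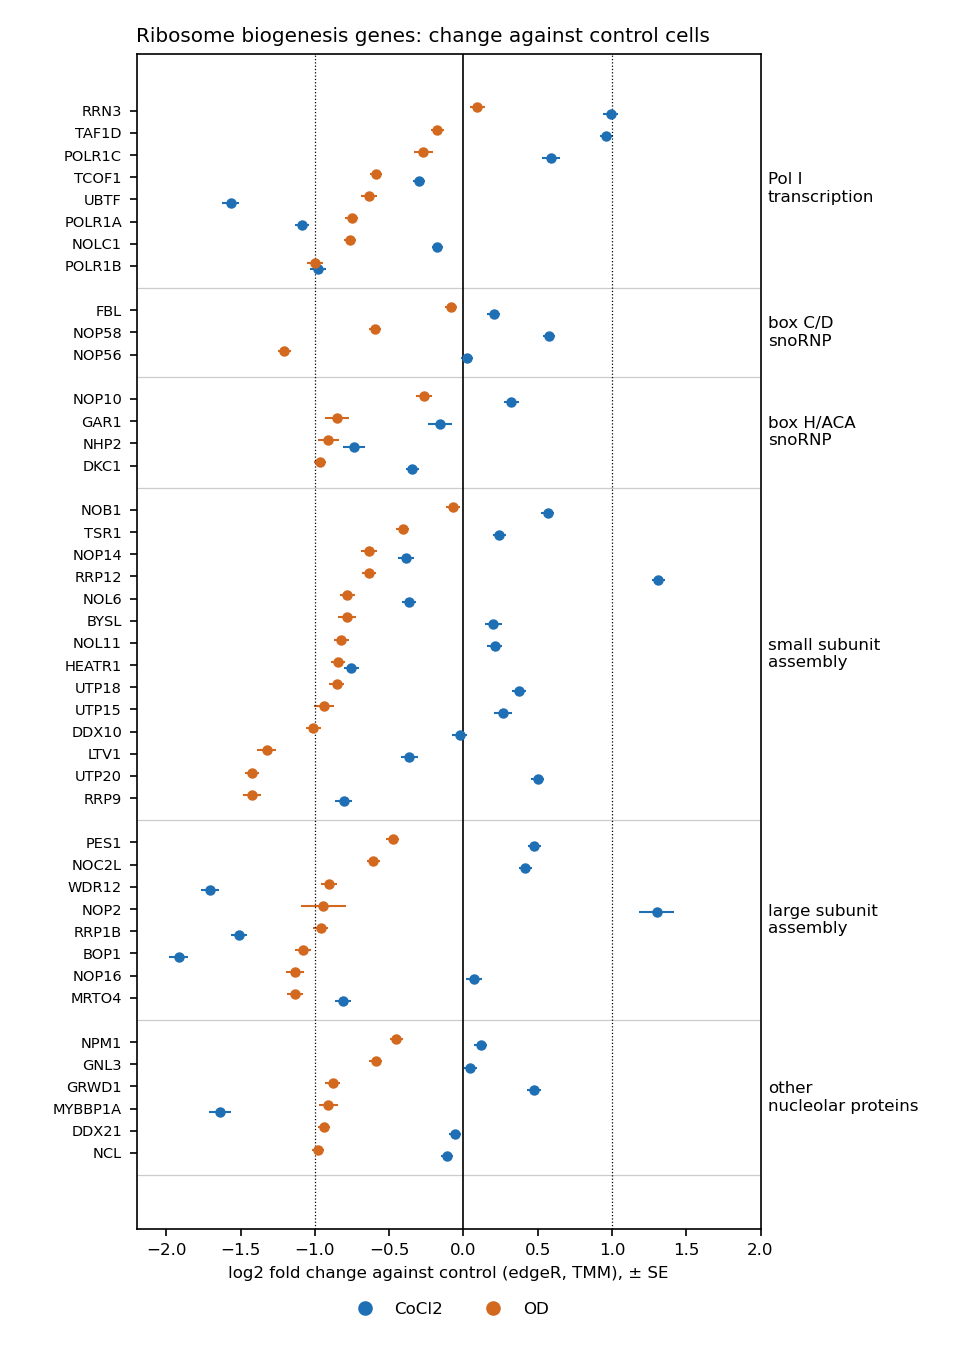
Fitted log2 fold change against control with its standard error for each of the 43 members, by role group, with CoCl2 (blue) and with OD (orange); dotted lines mark a change of 1 in either direction. The OD points lie between -1.42 and 0.094, while the CoCl2 points reach from -1.91 to 1.31, and 36 of the CoCl2 points would lie below 0 with library size alone.

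**Figure D2:**
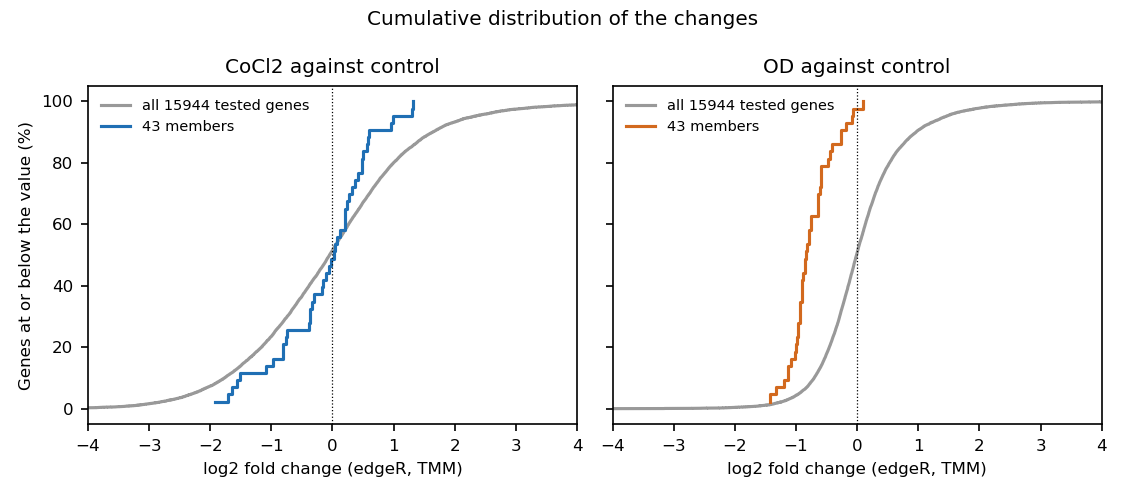
Cumulative share of genes (%) at or below each log2 fold change, for the 43 members (coloured) and all 15944 tested genes (grey), with CoCl2 on the left and OD on the right. With CoCl2 the members straddle the middle of the grey curve, and with OD their median lies at -0.84 where that of all genes lies at -0.010.

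The summed level of the members shows the difference on a linear scale. The 3 control libraries held 9429, 9500 and 9551 CPM of these messages, the CoCl2 libraries 9458, 9509 and 9930 CPM, and the OD libraries 5579, 5857 and 5925 CPM. The OD mean was thus 61.0% of the control mean, and the CoCl2 and control libraries overlapped. NPM1, NCL and DDX21 alone made up 42.5 to 44.8% of the sum, and without them the OD mean was 61.7% of control. As a share of all counts, with no scaling, the members took 1.05 to 1.06% in control, 0.749 to 0.763% with CoCl2 (71.5% of the control mean) and 0.641 to 0.679% with OD (62.7%), so the level with CoCl2 rests on the TMM factors. Each role group was lower with OD, from 56.9% of control for large subunit assembly to 67.3% for RNA polymerase I transcription. With CoCl2 and TMM scaling the group sums parted. They were 117% of control for box C/D snoRNP and for small subunit assembly, 98.5% for RNA polymerase I transcription and 99.9% for the other nucleolar proteins. Those of box H/ACA snoRNP and large subunit assembly were 86.3% and 81.4%. Single genes weigh in these sums. The mean of RRP12 went from 113 to 280 CPM, while the small subunit sum went from 1343 to 1565 CPM. TAF1D went from 256 to 499 CPM, while the RNA polymerase I sum went from 1602 to 1577 CPM. The median log2 fold changes with CoCl2 were 0.21 for small subunit assembly and -0.24 for RNA polymerase I transcription.

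**Figure D3:**
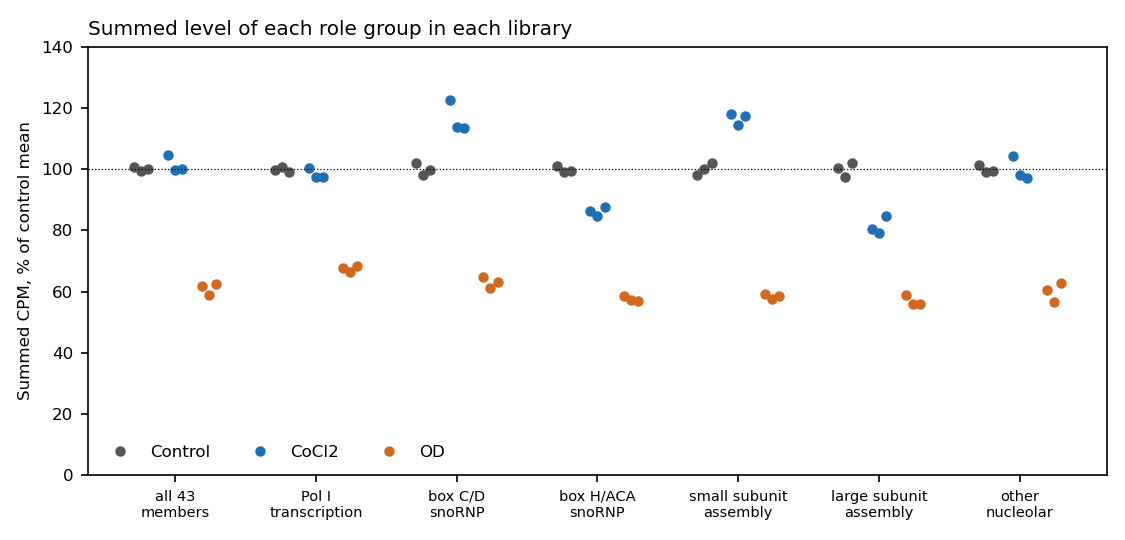
Summed CPM of all members and of each role group in every library, as a percentage of the control mean, with 1 point per library (grey, control; blue, CoCl2; orange, OD). The OD libraries lie between 55.9 and 68.2% of control in each role group, and the CoCl2 libraries between 79.2 and 123%.

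Of the 8 genes of RNA polymerase I transcription 3 were higher and 5 lower with CoCl2 at an adjusted p under 0.05, and 7 were lower with OD. Over all tested genes 40.4% were higher and 42.8% lower with CoCl2, so that these counts with CoCl2 lie near the background. With OD 33.3% of all tested genes were lower. UBTF, which binds ribosomal DNA and keeps it open for transcription (chr17:44205033-44221626 on GRCh38), had 95.1, 92.6 and 89.7 CPM in the control libraries, 29.5, 31.6 and 32.5 CPM with CoCl2 and 63.3, 54.7 and 61.0 CPM with OD. The 3 conditions did not overlap, and the CoCl2 libraries were the lowest, at 2.96-fold under control (-1.57 ± 0.059 SE on the log2 scale, adjusted p = 3.18e-34 by edgeR). RRN3, which brings the polymerase to the promoter, went the other way with 53.3, 55.8 and 55.6 CPM in control, 112, 105 and 111 CPM with CoCl2 and 59.9, 57.3 and 58.7 CPM with OD. It rose 1.99-fold with CoCl2 (0.99 ± 0.050 SE, adjusted p = 2.41e-27 by edgeR), while its OD libraries lay just above the control libraries and did not pass the test. RRN3 has closely similar pseudogene copies in the genome, and how reads that fit several genes were counted is not given in the sources used here. TAF1D, a subunit of the promoter selectivity factor SL1, rose as well, from 237, 271 and 259 CPM to 513, 520.3 and 463 CPM (0.96 ± 0.046 SE, adjusted p = 4.63e-25 by edgeR). So did POLR1C, a subunit shared with RNA polymerase III (0.59, though only 0.083 with library size alone).

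The subunits that form the catalytic core of the enzyme fell with both agents. POLR1A, the largest subunit, had 217, 207 and 205 CPM in control, 94.4, 97.7 and 104 CPM with CoCl2 and 128, 123 and 123 CPM with OD. POLR1B, the second largest subunit, had 85.8, 88.4 and 82.0 CPM in control, 41.7, 45.6 and 43.2 CPM with CoCl2 and 41.7, 42.7 and 43.7 CPM with OD. For POLR1B the 2 treated groups overlapped fully and both lay well below control (-0.98 ± 0.054 SE with CoCl2 and -1.001 ± 0.053 SE with OD). In the 11 settings in which its call with OD was lost the change lay between -0.960 and -0.999. TCOF1 and NOLC1, nucleolar phosphoproteins that tie transcription to snoRNP supply, changed by -0.30 and -0.18 with CoCl2 and by -0.59 and -0.76 with OD, and all 4 of these changes passed the test.

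Of the 3 core proteins of the box C/D snoRNP, NOP56 was called lower with OD, NOP58 fell by less than the threshold, and FBL did not pass the test. NOP56 had 423, 405 and 412 CPM in control, 449, 407 and 406 CPM with CoCl2 and 187, 172 and 179 CPM with OD, a 2.30-fold fall with OD (-1.20 ± 0.042 SE, adjusted p = 1.19e-34 by edgeR), and the CoCl2 and control libraries overlapped. Its partner NOP58 had 200.2, 197 and 202 CPM in control, 308, 298 and 288 CPM with CoCl2 and 131, 129.7 and 136 CPM with OD. It rose with CoCl2 (0.58, though only 0.071 with library size alone) and fell with OD (-0.60). FBL (fibrillarin), the methyltransferase of the particle, had 243, 233 and 234 CPM in control, 285, 263 and 269 CPM with CoCl2 and 232, 218 and 220.4 CPM with OD. The OD libraries of FBL were below every control library by a margin that did not pass the test, and the rise with CoCl2 was 0.20 (adjusted p = 1.08e-05 by edgeR) and turned to -0.30 with library size alone.

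All 4 box H/ACA proteins were lower with OD at an adjusted p under 0.05, where 33.3% of all tested genes were lower. DKC1 (dyskerin), the pseudouridine synthase, had 240.0, 232 and 229 CPM in control, 182, 183 and 188 CPM with CoCl2 and 120.0, 119.9 and 119 CPM with OD. NHP2 had 30.6, 30.2 and 33.2 CPM in control, 17.7, 18.6 and 19.8 CPM with CoCl2 and 18.3, 16.4 and 15.3 CPM with OD. Both proteins thus stepped down from control to CoCl2 (-0.34 and -0.74) and were lowest with OD (-0.97 and -0.91), although for NHP2 the 2 treated groups overlapped and with library size alone the order turned (-1.24 with CoCl2 and -0.87 with OD). NOP10, the smallest protein of the particle, had 67.0, 63.0 and 64.5 CPM in control, 84.8, 78.4 and 79.8 CPM with CoCl2 and 55.9, 53.4 and 52.5 CPM with OD, with no overlap between conditions. It rose with CoCl2 (0.32, though -0.18 with library size alone) and fell with OD (-0.26). GAR1 changed by -0.16 with CoCl2, which did not pass the test (adjusted p = 0.0564 by edgeR), and fell by 0.85 on the log2 scale with OD.

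Among the 14 small subunit factors 13 were lower with OD at an adjusted p under 0.05, where 33.3% of all tested genes were lower. The lowest were RRP9 and UTP20. RRP9, a protein of the U3 snoRNP that guides the first cuts of the precursor, had 60.9, 61.5 and 65.7 CPM in control, 35.8, 34.1 and 37.4 CPM with CoCl2 and 23.3, 24.1 and 22.7 CPM with OD. UTP20, a very large scaffold protein of the same early particle (chr12:101280105-101386618 on GRCh38), had 138, 148 and 148 CPM in control, 216, 204 and 196 CPM with CoCl2 and 52.9, 53.0 and 56.2 CPM with OD. Each was 2.68-fold lower with OD (-1.42 ± 0.059 SE for RRP9 and -1.42 ± 0.048 SE for UTP20), and with CoCl2 they went opposite ways, RRP9 down (-0.81) and UTP20 up (0.50, though -0.0049 with library size alone). LTV1, which stays on the pre-40S particle into the cytoplasm, fell from 47.6, 49.5 and 52.4 CPM to 20.1, 19.7 and 20.0 CPM with OD (-1.32 ± 0.063 SE), but 34.7% of its exonic bases are shared with other annotated genes on the same strand.

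RRP12, which takes part in the maturation and export of both pre-ribosomal subunits (chr10:97356358-97426076 on GRCh38), had with NOP2 the highest rise of the members with CoCl2. It had 109.9, 109 and 119 CPM in control, 272, 277 and 289.9 CPM with CoCl2 and 76.1, 70.6 and 70.9 CPM with OD. The CoCl2 libraries were 2.48-fold above control (1.31 ± 0.045 SE, adjusted p = 1.66e-36 by edgeR) and the OD libraries 1.55-fold below it (-0.63 ± 0.047 SE, adjusted p = 9.11e-19 by edgeR). NOB1, the endonuclease that makes the final cut at the end of 18S ribosomal RNA, had 94.6, 97.3 and 94.7 CPM in control, 143, 138 and 143 CPM with CoCl2 and 93.3, 86.1 and 93.3 CPM with OD. It rose with CoCl2 (0.57, though only 0.061 with library size alone), and its interval with OD reached from -0.19 to 0.042 on the log2 scale. NOL11, UTP15 and HEATR1, parts of the complex that binds the precursor first, changed by 0.21, 0.27 and -0.76 with CoCl2 and by -0.82, -0.94 and -0.84 with OD. UTP18 and the helicase DDX10 changed by 0.38 and -0.025 with CoCl2 and by -0.85 and -1.01 with OD. The other 5 (NOP14, NOL6, BYSL, TSR1 and LTV1) lay between -0.38 and 0.24 with CoCl2.

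Members of the large subunit path included the PeBoW complex, in which PES1, BOP1 and WDR12 bind each other and are needed for the maturation of the 28S and 5.8S ribosomal RNAs. PES1 had 171, 161 and 169 CPM in control, 229.5, 222 and 245 CPM with CoCl2 and 125, 114 and 121 CPM with OD. BOP1 had 94.6, 94.4 and 104 CPM in control, 23.3, 27.1 and 27.2 CPM with CoCl2 and 50.4, 45.3 and 42.5 CPM with OD. WDR12 had 101, 94.1 and 100.2 CPM in control, 29.9, 27.4 and 32.6 CPM with CoCl2 and 55.7, 52.0 and 49.9 CPM with OD. In each of the 3 genes the conditions did not overlap, but the order differed: the CoCl2 libraries were the highest for PES1 and the lowest for its partners. With CoCl2 BOP1 was 3.77-fold and WDR12 3.26-fold under control (adjusted p = 5.1e-36 and 4.76e-36 by edgeR), and PES1 was 1.39-fold above it (0.48, though -0.027 with library size alone). All 3 fell with OD, by 0.48 for PES1, 1.08 for BOP1 and 0.90 for WDR12 on the log2 scale.

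**Figure D4:**
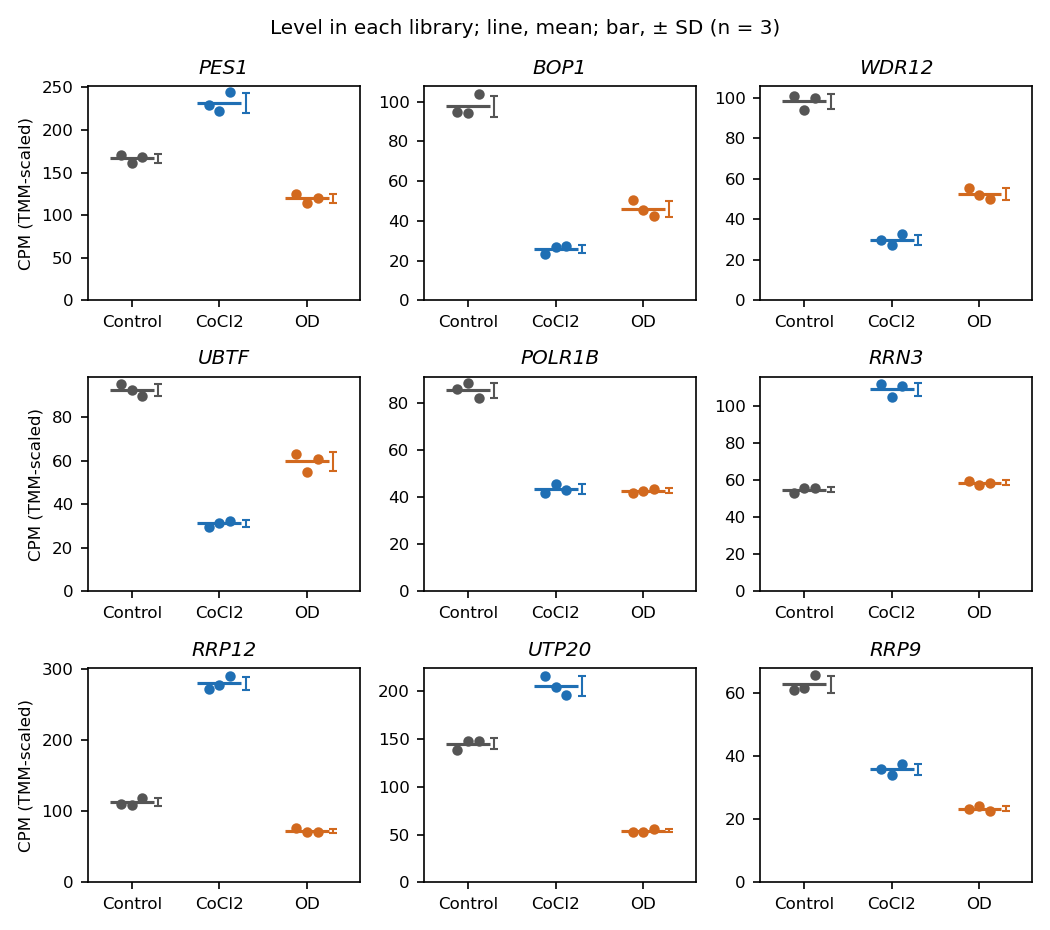
TMM-scaled CPM in each library for 9 members, with the mean (line) and SD (bar, n = 3) per condition and axes from 0. PES1, RRP12, UTP20 and RRN3 are highest with CoCl2, BOP1, WDR12 and UBTF are lowest with CoCl2, and the CoCl2 and OD libraries of POLR1B overlap; with library size alone the CoCl2 means of PES1 and UTP20 no longer exceed control.

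RRP1B, a nucleolar protein that also binds protein phosphatase PP1, followed BOP1 and WDR12, with 134, 136 and 139 CPM in control, 44.5, 46.7 and 51.8 CPM with CoCl2 and 70.4, 68.9 and 70.3 CPM with OD (-1.51 ± 0.052 SE with CoCl2). MRTO4, which holds the place of the ribosomal stalk protein P0 on the maturing subunit, had 94.8, 91.7 and 93.7 CPM in control, 52.2, 51.2 and 56.2 CPM with CoCl2 and 45.6, 40.9 and 41.2 CPM with OD, lower than control without overlap for both agents (-0.81 and -1.13). NOP16, a nucleolar protein, changed by -1.13 with OD and 0.071 with CoCl2, and the difference between the agents passed its own test (1.20, adjusted p = 1.17e-27 by edgeR). NOC2L, the counterpart of yeast Noc2, changed by 0.42 with CoCl2 and -0.61 with OD. NOP2, a methyltransferase of 28S ribosomal RNA, stood at a low level, with 48 to 215 counts per library, that is 5.16, 5.20 and 3.98 CPM in control, 13.3, 10.8 and 11.3 CPM with CoCl2 and 2.54, 2.40 and 2.56 CPM with OD. It rose 2.46-fold with CoCl2 (1.30 ± 0.12 SE) and fell with OD (-0.94 ± 0.15 SE), but 54.4% of its exonic bases are shared with another annotated gene on the same strand, and how reads on shared bases were counted is not given in the sources used here.

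Nucleolar proteins with several tasks were among the most abundant members. Per kilobase of exon the control levels were 201 CPM for NPM1, 166 CPM for NCL, 134 CPM for NOLC1, 113 CPM for DDX21 and 111 CPM for FBL, and the lowest was 1.02 CPM for NOP2. The length used joins the exons of all annotated transcripts of a gene (8311 bases for NPM1), so these values and their order depend on the annotation. NCL (nucleolin), which binds the nascent precursor, had 1498, 1453 and 1487 CPM in control, 1433, 1317 and 1362 CPM with CoCl2 and 766, 704 and 778 CPM with OD, so that it was 1.97-fold lower with OD (-0.98 ± 0.041 SE, adjusted p = 6.45e-31 by edgeR) and differed little with CoCl2 (-0.11). NPM1 (nucleophosmin), a histone chaperone of the outer nucleolus, had 1745, 1638 and 1634 CPM in control, 1925, 1768 and 1748 CPM with CoCl2 and 1234, 1126 and 1309 CPM with OD. Like RRN3, NPM1 has closely similar pseudogene copies, to which the same limit applies. Its OD libraries lay below all others (-0.45), and its small rise with CoCl2 (0.12) turned to -0.39 with library size alone. The helicase DDX21 changed by -0.94 and the GTPase GNL3 (nucleostemin) by -0.59 with OD, and neither passed the test with CoCl2.

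MYBBP1A, a nucleolar partner of MYB and p53, and GRWD1, a histone-binding protein, were the extremes of this group with CoCl2. MYBBP1A had 59.4, 55.6 and 65.9 CPM in control, 16.4, 20.4 and 21.2 CPM with CoCl2 and 32.8, 33.2 and 30.0 CPM with OD, a 3.11-fold fall with CoCl2 (-1.64 ± 0.073 SE) and a 1.88-fold fall with OD (-0.91 ± 0.065 SE). GRWD1 had 100.3, 98.5 and 99.1 CPM in control, 141, 129.9 and 143 CPM with CoCl2 and 56.2, 54.2 and 51.3 CPM with OD. The conditions of GRWD1 did not overlap, and the rise with CoCl2 (0.48) was -0.029 with library size alone.

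The 2 treatments share their control libraries, so they were also tested against each other directly. At an adjusted p under 0.05 (edgeR) 35 members were higher with CoCl2 than with OD and 6 were lower, where 40.2% of all tested genes were higher and 43.2% lower, and the median difference was 0.65 against -0.054 for all tested genes. Called higher with CoCl2 were NOP2 (2.24), RRP12 (1.95), UTP20 (1.92), GRWD1 (1.36), NOP56 (1.23), UTP18 (1.23), UTP15 (1.21), NOP16 (1.20), NOP58 (1.17), TAF1D (1.14), NOL11 (1.03) and NOC2L (1.03). These are 12 of 43 members and none was called lower, against 17.5% of tested genes called higher and 23.8% called lower. The calls of NOC2L and NOL11 were lost in 4 and 5 of the other settings. With library size alone the calls were 3 higher and 5 lower, where 1351 of 15944 tested genes were called higher and 6026 lower. The median was then 0.10, with the median of all tested genes at -0.60. Of the 14 small subunit factors 13 were higher with CoCl2, NOL6 and NOP14 turning to -0.13 and -0.30 with library size alone, and HEATR1 did not pass (0.087, adjusted p = 0.115 by edgeR). The 6 genes lower with CoCl2 than with OD were UBTF (-0.93), BOP1 (-0.84), WDR12 (-0.80), MYBBP1A (-0.73), RRP1B (-0.55) and POLR1A (-0.33). These are also the 6 called lower with CoCl2 against control, but both comparisons use the same CoCl2 libraries and are not independent. For POLR1B the difference was 0.024 (95% interval -0.12 to 0.16), which does not show that the agents act alike.

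Other genes of the pathway, outside the 43, were counted in the same fit. With OD 41 of 42 other small subunit assembly genes were lower at an adjusted p under 0.05 and 0 higher (median -0.65), and with CoCl2 21 were higher and 18 lower (median 0.13). Over all tested genes the shares were 33.3% lower and 32.3% higher with OD, and 42.8% lower and 40.4% higher with CoCl2, so that these counts with CoCl2 lie near the background. Of 45 other large subunit assembly genes 39 were lower and 4 higher with OD (median -0.55), and 17 were lower and 21 higher with CoCl2 (median 0.081). The RNA exosome, which trims the precursor, had 13 of 14 genes lower and 0 higher with OD (median -0.59), and 7 lower and 4 higher with CoCl2 (median -0.25). Of 10 other RNA polymerase I genes 6 were lower and 1 higher with OD (median -0.56), and 5 were lower and 4 higher with CoCl2 (median -0.13). RRS1 of the large subunit path was lowest with OD (-1.70 ± 0.077 SE), with 30.6, 30.7 and 32.0 CPM in control and 9.90, 9.10 and 9.80 CPM with OD. The exosome subunit EXOSC2 was lowest with CoCl2 (-2.11 ± 0.069 SE), and DDX47, a helicase of the small subunit path, was highest (2.22 ± 0.12 SE) from a low control level of 3.07, 3.43 and 3.31 CPM.

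Messages of proliferating cells were counted as well. Of 12 proliferation markers all 12 were lower with OD at an adjusted p under 0.05 (median -0.45), from -0.21 for MCM2 to -1.60 for CCNB1, and their summed level was 2402 to 2442 CPM with OD, 3589 to 3699 CPM in control and 2891 to 3066 CPM with CoCl2. With CoCl2 7 of these markers were lower and 4 higher, TOP2A being the lowest (-2.13) and MKI67 the highest (0.45). Over all tested genes 33.3% were lower with OD, and 42.8% were lower and 40.4% higher with CoCl2. The mean marker sum was 66.3% of control with OD and 80.8% with CoCl2, where that of the members was 61.0% and 101%. The share of counts on mitochondrially encoded genes was 4.9 to 5.0% with OD, 6.0 to 6.2% in control and 6.9 to 7.2% with CoCl2. The part of either in the changes of the ribosome biogenesis genes was not tested.

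Promoter sequences were searched for the E-box CACGTG, the motif that MYC binds together with MAX. RefSeq promoters (GRCh38.p14, the first listed start, from 250 bases before to 50 bases after it) were at hand for 37 members, and TCOF1, NOLC1, NOP58, RRP12, BOP1 and RRP1B were not in that table. CACGTG, which reads the same on both strands, was found in 13 of the 37 (35.1%), in 7.43% of 27305 promoters in all and in 9.98% of 10907 promoters of tested genes. The sites lay close to the start: in the 250 bases before it 3 of 37 members (8.11%) had the motif, against 8.76% of promoters of tested genes, and in the 50 bases after it 10 of 37 (27.0%), against 1.18%. The 8 sites printed here, with the motif in capitals, are a selection and belong to 6 members called with either agent and, last, to FBL and PES1, which were not called.
RRP9 chr3:51941892-51941921 (-): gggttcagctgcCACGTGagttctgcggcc
UTP20 chr12:101280083-101280112 (+): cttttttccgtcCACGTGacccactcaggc
LTV1 chr6:143843354-143843383 (+): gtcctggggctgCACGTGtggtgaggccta
MRTO4 chr1:19251807-19251836 (+): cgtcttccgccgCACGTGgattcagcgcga
NOP2 chr12:6568242-6568268 (-): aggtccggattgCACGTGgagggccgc
MYBBP1A chr17:4555340-4555369 (-): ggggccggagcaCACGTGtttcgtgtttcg
FBL chr19:39846356-39846385 (-): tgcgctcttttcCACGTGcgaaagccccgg
PES1 chr22:30591880-30591909 (-): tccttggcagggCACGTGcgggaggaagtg

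In these sequences the first base of the motif lies at position -5 in RRP9, -10 in UTP20, 29 in LTV1, 15 in MRTO4, 36 in NOP2, 28 in MYBBP1A, 7 in FBL and 14 in PES1, where the start base is +1. Of the members' other sites, 1 in NOP10 at -170 and 1 in UTP18 at -89 lay farthest from the start, and each of these genes had a second site nearer to it. The median change with OD was -0.85 for the 13 members with CACGTG and -0.85 for the 24 without it, and with CoCl2 the medians were 0.20 and 0.036, each given as a description. The core of the hypoxia response element, ACGTG or GCGTG on either strand, which lies within CACGTG as well, was found in 35 of 37 members (94.6%) and in 62.5% of promoters of tested genes.

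**Figure D5:**
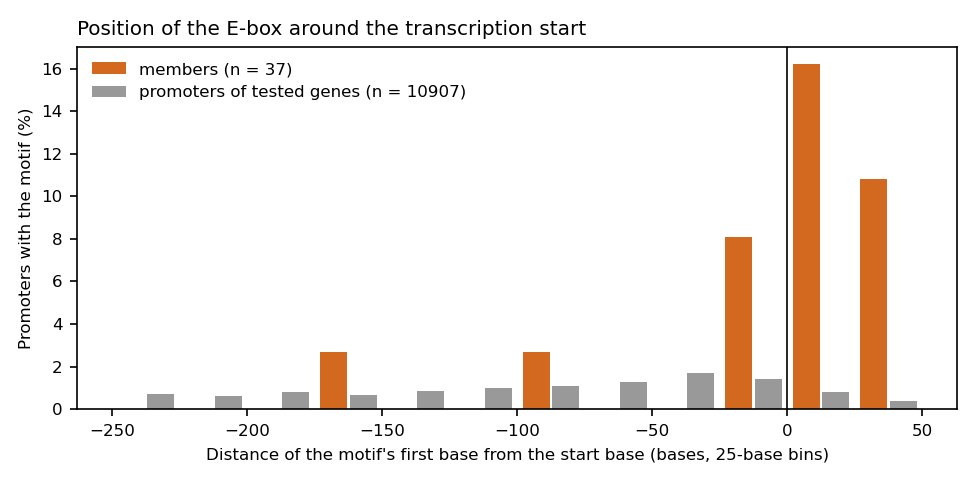
Share of promoters (%) with a CACGTG motif that starts in each bin of 25 bases around the transcription start, for 37 members (orange) and 10907 promoters of tested genes (grey). The members' share is highest in the bins next to and after the start, and over the 50 bases after it 27.0% of members hold the motif against 1.18% of promoters of tested genes.

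Small nucleolar RNA genes lie inside 9 of the members (POLR1C, TAF1D, NOP56, NOP58, DKC1, NOL11, TSR1, NCL and GNL3), from 1 in NOL11 to 8 in TAF1D by GENCODE 44. For these hosts the median was 0.21 under CoCl2 and -0.60 under OD, for the 34 other members -0.11 and -0.85, again as a description. The small nucleolar RNAs carry no poly(A) tail and were not measured as such in these libraries. In TAF1D and NOP56 small RNA genes on the same strand take 11.9% and 9.5% of the exonic bases.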

How the data were processed

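Poly(A) messenger RNA of uCaco-2 cells was sequenced as stranded libraries with single-end reads of 75 bases, in 3 libraries per condition. Per the labels and the study's methods, the authors checked reads with FastQC 0.11.9, trimmed them with cutadapt 2.10, mapped them on GRCh38.p13 with STAR 2.7.5b and deposited raw read counts per gene symbol for GENCODE 34, with no normalization. The tool that counted reads, its use of strand and its rule for reads matching more than 1 gene are not given in the sources used here, so overlapping genes and close copies are uncertain. The authors tested with DESeq2.

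From the counts, edgeR 4.0.16 (R 4.3.3) filtered genes by its expression filter (15944 of 60591 symbols, all 43 members among them), computed TMM factors and fitted 1 mean per condition over the 9 libraries by the robust quasi-likelihood method. Adjusted p-values are Benjamini-Hochberg values over all tested genes, and SE is the log2 fold change divided by the root of its F value. Intervals of 95% use 6 residual degrees of freedom. The p-values use the larger degrees of freedom that the quasi-likelihood method gains by pooling over genes. An interval can therefore hold 0 where the test passed, as for NHP2 between agents (-0.026 to 0.37, adjusted p = 0.0453 by edgeR). Standard errors of the members were 0.039 to 0.15 with OD and 0.039 to 0.12 with CoCl2, the highest for NOP2, the member with the fewest counts. Replicate pairs differed by more than sampling noise (chi-square per degree of freedom 1.82 to 3.32). The steps were tested on simulated counts in which 200 genes were changed, as many up as down. That is far fewer than the genes called with CoCl2, so the simulation does not bear on the choice of scaling. Coordinates, exon overlap and small nucleolar RNA genes came from GENCODE 44 on GRCh38, matched by symbol.

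The members and all gene lists were chosen with earlier results of these data known, and no set was tested. Levels in every library are given for the members with the lowest and highest change of each role group and agent and for calls in the rarer direction. POLR1A, TAF1D, UTP20, LTV1, WDR12, RRP1B, RRS1 and DDX47 were added to these after their values were seen. The alternatives were other scalings (upper-quartile factors, RLE, library size alone), other filters (none, or a minimum of 10 counts per library throughout), fits on the 6 libraries of a comparison, DESeq2 1.42.0, a block for the replicate number, omission of each replicate in turn, the adjusted p alone, glmTreat at a threshold of 1, and the motif window before the start. The motif window after the start, any listed start, and the members without NOP2 and LTV1 (at least 25% of exonic bases shared on the same strand) were chosen after seeing the data. With genes on the other strand counted, NHP2 (28.0%) and TSR1 (26.9%) reach this limit too, and they were kept.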

Additional observations from a re-analysis of the deposited data

How the results depend on the processing

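With OD all 43 members kept their sign in every setting, and with CoCl2 27 did. Over all members and alternatives 37 of 1935 values changed sign, 24 with CoCl2 and 13 between agents. Of 900 values for the 20 members named by the rule, 847 kept their direction and their side of the threshold, 16 fell below it, 19 passed it and 18 reversed. The causes were not tested. With RLE factors 4 members were called higher with CoCl2, and the medians were 0.076 for CoCl2 and 0.69 for CoCl2 against OD. With upper-quartile factors the medians were -0.075 for CoCl2, -0.81 for OD and 0.52 for CoCl2 against OD, where 1 member was called lower. With library size alone they were -0.48, -0.80 and 0.10, with 0 higher and 11 lower calls for CoCl2 and 3 higher and 5 lower for CoCl2 against OD. Over all 15944 tested genes that scaling gave 1833 higher and 5839 lower calls for CoCl2, and 1351 and 6026 between agents. Without the count filter they were -0.041 for CoCl2 and 0.58 between agents, and with at least 10 counts in every library -0.0033 and 0.60. With the adjusted p alone 19 members were higher and 18 lower with CoCl2, 40 lower with OD, and 35 higher and 6 lower between agents. At this threshold RRN3 was higher with OD under upper-quartile factors (0.13) and library size alone (0.13). It was also higher with at least 10 counts in every library (0.12) and in edgeR on the 6 libraries of the comparison (0.11). By glmTreat 5 members were lower with OD.

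Leaving out each replicate gave medians of -0.019 to 0.053 for CoCl2 (-0.019 without CoCl2 replicate 1), -0.86 to -0.81 for OD and 0.64 to 0.69 between agents, and 0 to 1 members called lower between agents (UBTF, -1.002, without OD replicate 2). Reversed for CoCl2 among these 20 were NOP56 (upper quartile -0.075, library size -0.48, no filter -0.041, at least 10 counts -0.0033, without CoCl2 replicate 1 -0.019) and, with library size alone, FBL (-0.30), NOP10 (-0.18), PES1 (-0.027), GRWD1 (-0.029) and NPM1 (-0.39). Of all members 15 reversed for CoCl2 with library size alone, the others being BYSL, GNL3, NOC2L, NOL11, NOP16, TSR1, UTP15, UTP18 and UTP20 (-0.46 for GNL3 to -0.0049 for UTP20). Among the 20, POLR1B reversed between agents (upper quartile -0.11, library size -0.52, no filter -0.042, at least 10 counts -0.030, and -0.0028 to 0.058 on leaving out each replicate, the lowest without CoCl2 replicate 2), as did FBL (-0.26), NHP2 (-0.37) and MRTO4 (-0.22) with library size alone. HEATR1 (-0.46), NOP14 (-0.30), TCOF1 (-0.26) and NOL6 (-0.13) did so too, which makes 8 members in all. CACGTG was found in 8.11% of member promoters within the 250 bases before the start, in 27.0% within the 50 after it, and in 43.2% at any listed start. For promoters of tested genes these shares were 8.76%, 1.18% and 12.3%.

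Deviations of libraries from their group mean correlated by -0.0049 to 0.038 for the same replicate number and by -0.047 to 0.025 for different numbers. With 3 libraries per group such small values cannot show whether the numbers pair cultures. With the replicate number as a block the medians were 0.023, -0.84 and 0.65, and at an adjusted p under 0.05 the members were 19 higher and 19 lower with CoCl2 and 41 lower with OD (edgeR). Depth limits chiefly NOP2, whose 48 to 215 counts per library left an SE of 0.15 with OD.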

Other observations

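Genes of the MYC and MAX network, whose proteins bind the E-box as pairs, had members that changed with either agent. MYC, an activator of ribosome biogenesis genes, had 103, 105 and 109.8 CPM in control, 58.0, 57.3 and 68.9 CPM with CoCl2 and 84.0, 86.5 and 81.1 CPM with OD, and it was lower with both agents (-0.78 ± 0.054 SE with CoCl2 and -0.34 ± 0.051 SE with OD). MXD1, a repressor that competes with MYC for MAX, had 9.15, 10.7 and 10.2 CPM in control, 106, 107 and 95.3 CPM with CoCl2 and 52.6, 49.2 and 47.7 CPM with OD. The conditions of MXD1 did not overlap, and it was the highest of the network with either agent (3.35 ± 0.069 SE and 2.32 ± 0.073 SE). Of the 12 genes of this network 6 were higher and 6 lower with CoCl2 at an adjusted p under 0.05 (edgeR), and 7 were higher and 3 lower with OD. Over all tested genes 40.4% were higher and 42.8% lower with CoCl2, and 32.3% higher and 33.3% lower with OD, so that the counts with CoCl2 lie near the background. MXI1 and MXD4, repressors of the same family, were called higher with both agents (1.70 and 2.55 with CoCl2, 2.04 and 1.499 with OD). MYC was lower, and MXD1 and MXD4 higher, with CoCl2 than with OD (-0.44, 1.04 and 1.05, adjusted p = 6.58e-11, 1.14e-26 and 4.64e-24 by edgeR). MXI1 was the exception, with 20.5, 20.1 and 19.6 CPM with CoCl2 and 25.8, 25.1 and 25.3 CPM with OD. MYCN had 13.6, 15.2 and 12.2 CPM in control and 3.92, 4.18 and 3.93 CPM with CoCl2 (-1.78 ± 0.12 SE), and with OD its change of 0.085 did not pass the test. MXI1 and MXD4 were named after their values were seen. The part of these genes in the levels of the ribosome biogenesis factors was not tested.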
